A study of Mus musculus with 3 samples.

Results

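The genes described are the subunits of Polycomb repressive complex 2 (PRC2) in CD4+ T cells, among them Ezh2, the gene targeted for deletion. They were chosen by symbol as Ezh2, Ezh1, Suz12, Eed, Rbbp4, Rbbp7, Jarid2, Mtf2, Phf19 and Aebp2. All 10 had a row in both deposited matrices, out of 32285 gene rows.

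PRC2 places methyl groups on lysine 27 of histone H3, a mark of repressed genes. Its catalytic subunit is Ezh2 or its paralog Ezh1, and it works only together with Suz12 and Eed, while Rbbp4 and Rbbp7 are histone-binding proteins shared with other chromatin complexes. Accessory subunits sort the complex into variants, with Mtf2 and Phf19 in PRC2.1 and Jarid2 and Aebp2 in PRC2.2. In T cells PRC2 is known for holding cytokine and lineage genes silent, and Ezh2 is known as the form favoured in dividing cells.

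The KO mice were Ezh2fl/fl MRL/lpr animals with the CD4-Cre/ERT2 transgene, a tamoxifen-inducible Cre driven by the Cd4 promoter. The WT mice were Ezh2fl/fl MRL/lpr littermates without Cre, so both genotypes carried floxed Ezh2 and the lpr mutation of the death receptor Fas. Both received tamoxifen by gavage at 300 mg/kg from week 10 (preventative) or week 14 (therapeutic) to week 24 of age, and the labels do not give each mouse's start. CD4+ T cells were sorted from kidney and spleen, marked with antibody tags, and read by single-cell RNA sequencing from transcript 5′ ends. Kidneys were dissociated with enzymes and spleens were mashed, so organ and dissociation cannot be told apart.

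Of the 9 mice in the tag key, 2 KO and 3 WT mice could be told apart in both organs, and they are called KO1, KO2, WT1, WT2 and WT3. Their 13337 cells shared 0 barcodes between libraries. Kidney held 717 and 219 cells of the KO mice and 947 to 1629 cells of each WT mouse, and spleen held 1324 and 1580 cells of the KO mice and 922 to 2386 of each WT mouse. Counts of unique molecular identifiers (UMIs, 1 for each captured transcript) were summed per mouse and organ and reached 900068 in kidney KO2, the lowest, and 10102765 in spleen WT1, the highest. The 3 CD4 T cell markers Cd3e, Cd4 and Trac summed to 1599 to 1830 counts scaled to a common library total (CPM) in KO libraries and to 1876 to 2173 CPM in WT libraries. The 2 CD8 transcripts summed to 172 to 188 CPM in KO kidney, against 25.8 to 44.7 CPM in WT kidney, and to 26.7 to 59.6 CPM in KO spleen, against 7.71 to 16.2 CPM in WT spleen. The 4 kidney tubule markers summed to 0.369 to 2.34 CPM in KO kidney, with Umod, Slc34a1 and Kap at 0, against 20.6 to 501 CPM in WT kidney. The 4 myeloid markers summed to 7.24 to 8.65 CPM in KO spleen, against 21.6 to 81.9 CPM in WT spleen, and to 11.7 to 78.2 CPM in KO kidney, against 7.92 to 84.6 CPM in WT kidney. Their part in the genotype results below was not tested gene by gene. The 453 cells with 2 or more UMIs of CD8, B, myeloid, tubule, erythroid or platelet transcripts were left out in an alternative. Ezh2 was lower there too in every KO mouse than in the WT mice of its organ. Cells with 1 such UMI stayed in, so the alternative does not take out all cells of other types.

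The genes lie on 8 chromosomes and the sequences that follow, taken from RefSeq on GRCm38.p6, are those that touch the results in dividing cells. Windows of 300 bases, 250 before and 50 after an annotated gene start, were searched on both strands for 4 forms of the E2F site, TTTCCCGC, TTTCGCGC, TTTGCCGC and TTTGGCGC, forms known from promoters of cell cycle genes. At least 1 form was found in 2.26% of the 32851 windows of all genes and in 3 of the 14 windows of the members, those of Ezh2, Suz12 and Phf19. The motif was chosen after the results in dividing cells were known, and a match is only a description of the letters. The matches of Ezh2 and Phf19 lie inside the spans of their genes. The matched letters are in capitals in these 30-base stretches, each written 5′ to 3′ on the strand of its gene.
Ezh2, chr6:47595009-47595038, minus strand, match 3 bases after an annotated start that lies inside the span of the gene: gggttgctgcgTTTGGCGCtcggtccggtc
Suz12, chr11:79992876-79992905, plus strand, match 219 bases before the start: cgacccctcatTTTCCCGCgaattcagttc
Phf19, chr2:34914166-34914195, minus strand, match 208 bases before a start and spelled as on the other strand: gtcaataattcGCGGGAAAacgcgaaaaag

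Suz12 and Ezh1 lie on the same chromosome and moved oppositely in dividing cells, and their 250 bases upstream of the start are shown for comparison. The capitals mark the E2F form in Suz12, and none of the 4 forms was found in the Ezh1 window. None was found either for Rbbp4, Rbbp7 and Aebp2, which also rose in dividing cells, or for Jarid2, which fell.
Suz12, chr11:79992856-79993105, plus strand: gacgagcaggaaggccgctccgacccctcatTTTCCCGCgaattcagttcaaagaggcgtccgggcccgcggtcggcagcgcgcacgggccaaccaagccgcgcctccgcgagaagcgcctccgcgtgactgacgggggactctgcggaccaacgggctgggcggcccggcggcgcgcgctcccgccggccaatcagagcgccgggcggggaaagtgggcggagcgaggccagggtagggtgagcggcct
Ezh1, chr11:101226464-101226713, minus strand: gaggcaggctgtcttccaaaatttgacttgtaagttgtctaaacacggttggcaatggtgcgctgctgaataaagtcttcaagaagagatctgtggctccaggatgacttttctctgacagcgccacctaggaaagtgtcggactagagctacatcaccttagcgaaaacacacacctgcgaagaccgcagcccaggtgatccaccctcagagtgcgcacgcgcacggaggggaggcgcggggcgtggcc

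The first question was how much Ezh2 transcript the KO cells held, since that checks the labels. Ezh2 lies on chromosome 6 from 47530274 to 47595270. In kidney it stood at 75.6 CPM in KO1 and 59.7 CPM in KO2, against 89.8 CPM in WT1, 159 CPM in WT2 and 138 CPM in WT3. In spleen it stood at 51.3 and 53.4 CPM in KO1 and KO2, against 69.5, 172 and 152 CPM in WT1, WT2 and WT3. These CPM were scaled between libraries by the TMM method. Each KO value lay under all WT values of its organ, and among WT mice WT1 came closest to the KO mice. The lowest value rested on 51 Ezh2 UMIs, in kidney KO2, and the others on 205 to 1244.

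Averaged over mice, Ezh2 stood at 67.6 ± 11.3 CPM in KO kidney (SD, n = 2) and 129 ± 35.4 CPM in WT kidney (SD, n = 3). In spleen the averages were 52.3 ± 1.51 CPM in KO mice (SD, n = 2) and 131 ± 54.1 CPM in WT mice (SD, n = 3). The KO level was therefore 0.547 of the WT level in kidney and 0.407 of it in spleen as edgeR fitted them, so transcript from the 5′ end remained in KO cells. The floxed exons are not stated in the labels, and a transcript of a recombined gene can still be counted at its 5′ end. The exact two-sided permutation test of the mean log2 CPM difference, -0.90 in kidney and -1.22 in spleen, gave p = 0.2 in both organs, where 0.1 is the smallest p that 2 against 3 mice allow. The counts were summed over cells, and whether fewer cells held the transcript or each cell held less was not tested.

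The plot of levels by library shows all 10 genes. Besides Ezh2, Rbbp7 was the only member whose KO mice lay on one side of the WT mice in both organs.

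**Figure D1:**
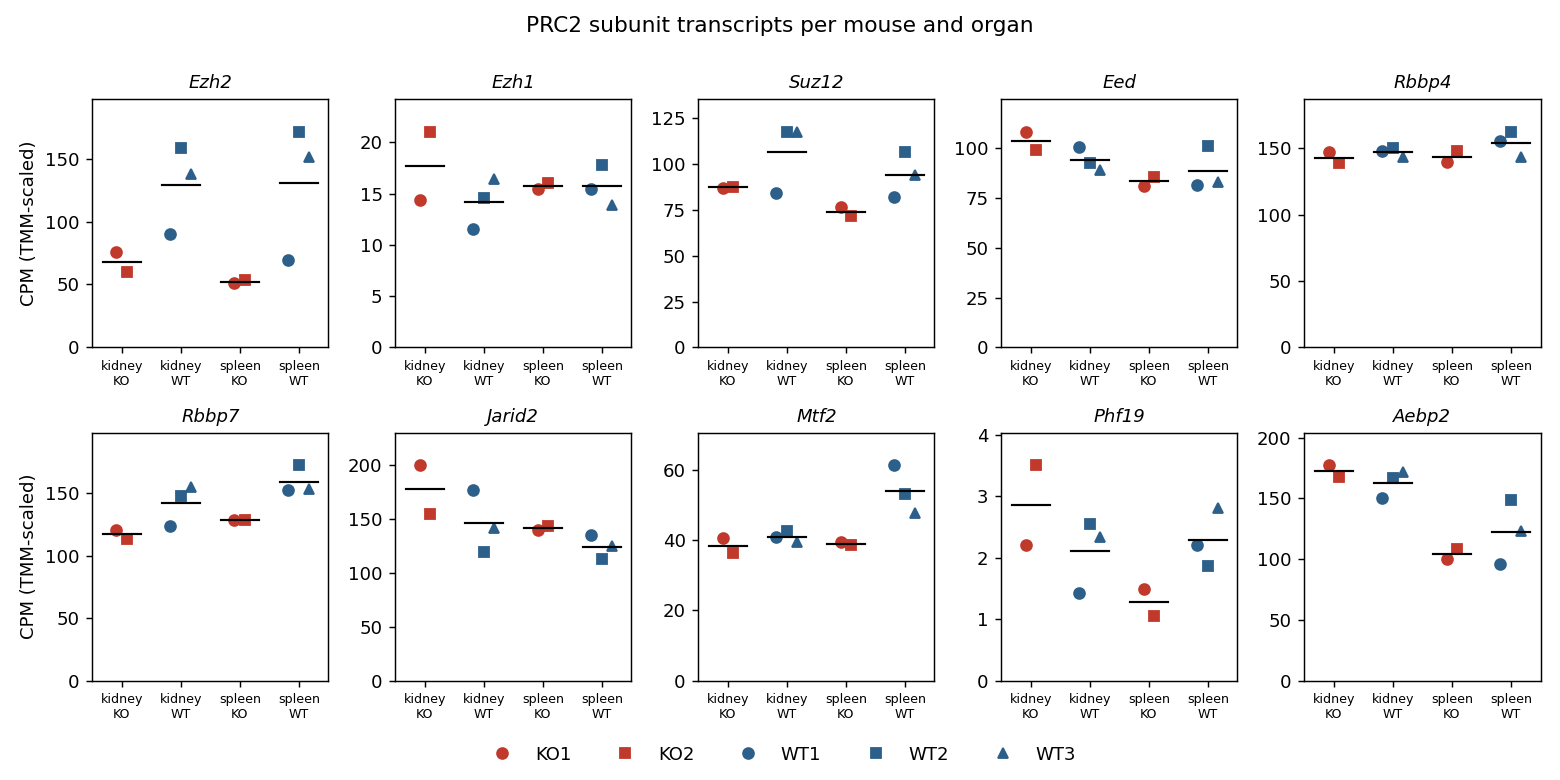
Level of each PRC2 subunit in TMM-scaled CPM (vertical axis, linear, from 0) for KO and WT mice in kidney and spleen; each symbol is 1 mouse and each horizontal line the mean of its group. Ezh2 in KO mice lies below all WT values of the same organ, with WT1 nearest. In kidney it lies at 59.7 to 75.6 CPM, against 89.8 to 159 CPM in WT mice. In spleen it lies at 51.3 to 53.4 CPM, against 69.5 to 172 CPM in WT mice. Rbbp4 differs little between any groups.

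No member passed the test between KO and WT mice, in kidney or in spleen. The test was the edgeR quasi-likelihood fit with Benjamini-Hochberg adjustment over all genes, at a threshold of 0.05. In spleen 0.239% of the 11698 genes tested were called, and in kidney 0% of 10486, where the unadjusted p of 966 genes was under 0.05 and 58 were called by DESeq2. All 10 members were tested in spleen and 9 in kidney, where Phf19 did not pass the filter on low counts. Before adjustment 1 member (Ezh2) had p under 0.05 in kidney, where 966 of 10486 genes did. In spleen 3 members (Ezh2, Mtf2 and Rbbp7) did, where 1973 of 11698 genes did. Ezh2 had the smallest adjusted p of the members in both organs. Its log2 fold change was -0.87 ± 0.26 in kidney (SE, edgeR adjusted p = 0.467) and -1.30 ± 0.39 in spleen (SE, edgeR adjusted p = 0.192).

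The Ezh2 call turned on WT1. Without WT1 the log2 fold change was -1.05 in kidney (edgeR adjusted p = 0.013) and -1.61 in spleen (edgeR adjusted p = 0.000529). Calls rose over all genes without WT1, to 739 genes in kidney and 2254 in spleen, against 0 and 28 with all mice. For Ezh2, DESeq2 on all mice gave -1.30 in spleen with an adjusted p of 0.0151. The difference was not shown to be unequal between organs: the interaction term for Ezh2 was 0.41 ± 0.52 on the log2 scale (SE, edgeR adjusted p near 1), and 0% of 12072 genes passed it in the edgeR fit, with 487 genes under 0.05 before adjustment, 6 called by DESeq2 and 4 called by edgeR with the mouse as a block.

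Ezh1, the paralogous methyltransferase, lies on chromosome 11 from 101191115 to 101226463. In kidney it stood at 14.4 and 21.1 CPM in KO1 and KO2, against 11.6, 14.6 and 16.4 CPM in WT1, WT2 and WT3. In spleen it stood at 15.4 and 16.1 CPM in the KO mice, against 15.5, 17.7 and 13.9 CPM in the WT mice. The groups overlapped in both organs, and the log2 fold changes were 0.31 ± 0.27 in kidney (SE, edgeR adjusted p = 0.742) and 0.03 ± 0.17 in spleen (SE, edgeR adjusted p = 0.943). A rise of Ezh1 in KO mice was thus not detected, at 18 to 175 Ezh1 UMIs per library.

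The core partners of the methyltransferases gave smaller fold changes than Ezh2. Suz12, the scaffold of the complex, lies on chromosome 11 from 79993106 to 80034123. In spleen it stood at 76.3 and 71.6 CPM in KO1 and KO2, against 82.1, 106 and 94.0 CPM in WT1, WT2 and WT3. The KO mice lay below the WT mice there, and the log2 fold change of -0.33 ± 0.14 did not pass (SE, edgeR adjusted p = 0.326). Without WT1, where 2254 genes were called in spleen, the log2 fold change was -0.42 (edgeR adjusted p = 0.0479). In kidney the groups overlapped, with 87.1 and 87.7 CPM in the KO mice and 84.3, 118 and 117 CPM in the WT mice. Eed, which binds the finished histone mark, lies on chromosome 7 from 89954654 to 89980976. It ranged from 81.0 to 108 CPM in KO libraries and from 81.4 to 101 CPM in WT libraries, and its groups overlapped in both organs.

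Rbbp4 lies on chromosome 4 from 129307100 to 129335370 and Rbbp7 on chromosome X from 162760372 to 162779090. Rbbp4 differed little between genotypes, with 139 to 148 CPM in KO libraries and 143 to 163 CPM in WT libraries. Rbbp7 stood at 121 and 113 CPM in KO kidney, against 124, 147 and 155 CPM in WT kidney. It stood at 129 and 128 CPM in KO spleen, against 152, 172 and 153 CPM in WT spleen. The Rbbp7 groups were apart in both organs but the differences were small, -0.24 ± 0.14 in kidney (log2, SE, edgeR adjusted p = 0.623) and -0.29 ± 0.11 in spleen (log2, SE, edgeR adjusted p = 0.257).

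Among the accessory subunits, Mtf2, Phf19 and Jarid2 had groups apart in spleen only. Mtf2, which brings PRC2.1 to unmethylated CG-rich DNA, lies on chromosome 5 from 108065660 to 108109219. In spleen it stood at 39.4 and 38.5 CPM in KO mice, against 61.4, 53.0 and 47.8 CPM in WT mice, and the fit gave a log2 fold change of -0.45 ± 0.15 (SE, edgeR adjusted p = 0.216). In kidney it stood at 36.3 to 40.6 CPM in KO mice and 39.5 to 42.6 CPM in WT mice, which overlap. Phf19, another PRC2.1 subunit, lies on chromosome 2 from 34893752 to 34914353 and was thinly measured, at 3 to 25 UMIs per library. It stood at 1.49 and 1.06 CPM in KO spleen, against 2.21, 1.87 and 2.80 CPM in WT spleen.

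Jarid2, the PRC2.2 subunit known to help recruit the complex, lies on chromosome 13 from 44730774 to 44921643. It stood at 140 and 143 CPM in KO spleen, against 135, 113 and 125 CPM in WT spleen, and was the only member whose KO mice lay above the WT mice in an organ. Its log2 fold change there was 0.21 ± 0.12 (SE, edgeR adjusted p = 0.435). Aebp2, the DNA-binding partner of Jarid2 in PRC2.2, lies on chromosome 6 from 140622454 to 140678472 and its genotype groups overlapped in both organs.

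Groups apart were common among all genes. In kidney KO mice lay below all WT mice for 17.6% of tested genes and above them for 12.9%, or either way for 30.5%, and 2 members, Ezh2 and Rbbp7, lay below. In spleen the shares were 20.6% below, 18.5% above and 39.1% either way, and 5 of the 10 members lay below (Ezh2, Suz12, Rbbp7, Mtf2 and Phf19) while Jarid2 lay above. The median log2 fold change of the tested members was -0.004 in kidney and -0.25 in spleen, against -0.005 and -0.006 over all genes tested in those organs.

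Cell makeup differed between the genotypes beside these sums. Cells with Igfbp4 and Lef1, transcripts of naive T cells, made up 10.9% and 14.6% of kidney cells in KO1 and KO2, against 1.04%, 0.545% and 0.106% in WT1, WT2 and WT3. In spleen they made up 42.2% and 30.1% in the KO mice, against 1.63%, 2.28% and 0.746% in the WT mice. The 95% Wilson intervals, which cover counting error only, stayed apart, with a lowest KO bound of 8.8% in kidney and 27.9% in spleen and a highest WT bound of 1.66% and 3.46%. Cells with Mki67, a transcript of dividing cells, made up 3.07% and 3.65% of kidney cells in the KO mice, against 5.16%, 8.32% and 6.23% in the WT mice. In spleen Mki67 cells made up 2.79% and 3.29% in the KO mice, against 7.0%, 12.5% and 6.43% in the WT mice. For Mki67 cells the intervals were apart in spleen, and in kidney those of KO1 (2.03% to 4.6%) and KO2 (1.86% to 7.04%) overlapped those of WT mice. Havcr2 cells made up 3.77% and 5.02% of kidney cells in the KO mice, against 6.2%, 10.4% and 9.08% in the WT mice. In spleen they made up 0.755% and 2.41% in the KO mice, against 4.9%, 15.8% and 14.8% in the WT mice. Cells with Foxp3, a transcript of regulatory T cells, made up 6.83% and 6.39% of kidney cells in the KO mice, against 4.91%, 0.341% and 1.06% in WT1, WT2 and WT3. In spleen they made up 12.1% and 20.8% in the KO mice, against 16.5%, 0.759% and 2.98% in the WT mice, with WT1 between the KO mice. The part of the Havcr2 and Foxp3 cells in the genotype results was not tested. Without the naive and Mki67 cells Ezh2 remained lower in both KO mice than in all WT mice, with mean log2 differences of -0.74 in kidney and -0.91 in spleen (exact permutation p = 0.2 in both), and the highest KO value in spleen, 51.3 CPM, was then close to the lowest WT value, 55.1 CPM.

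The members were next followed across cell groups, set for each cell by the first of these transcripts it held: Mki67, Foxp3 (regulatory T cells), Igfbp4 with Lef1 (naive T cells), and Havcr2 (an inhibitory receptor of effector cells). Cells with none of them are called unmarked. Of the 13337 cells, 9169 were unmarked and 410 met 2 or more of the rules. Groups of under 20 cells in a library were not used.

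PRC2 subunits differed most in the Mki67 cells. Ezh2, Phf19, Rbbp7, Rbbp4, Suz12 and Aebp2 rose, Jarid2 and Ezh1 fell, and Eed and Mtf2 did not pass the test. The comparison set the Mki67 cells of 9 libraries against unmarked cells of the same library. These libraries came from 5 mice, so kidney and spleen of the same mouse are not independent. The test called 8 of the 10 members, where 35.8% of the 10751 genes tested were called, 16% as higher and 19.7% as lower. The median log2 fold change of the members was 0.42, against -0.08 over all genes tested.

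Ezh2 stood at 162 CPM in the Mki67 cells of KO1 kidney, against 79.2 CPM in its unmarked cells. In WT kidney the Mki67 cells held 132, 302 and 237 CPM, against 92.1, 128 and 123 CPM in unmarked cells of WT1, WT2 and WT3. In KO spleen the Mki67 cells held 173 and 158 CPM, against 49.9 and 50.4 CPM in unmarked cells. In WT spleen they held 158, 313 and 313 CPM, against 57.2, 126 and 138 CPM. Ezh2 was higher in the Mki67 cells of all 9 libraries, KO and WT alike, by 1.21 ± 0.10 on the log2 scale or 2.32-fold (SE, edgeR adjusted p = 3.07e-08).

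The histone-binding and scaffold subunits rose less steeply. Rbbp7 ranged from 213 to 254 CPM in Mki67 cells, with a median of 239, and from 113 to 149 CPM in unmarked cells of the same libraries, with a median of 130. The groups did not overlap, and the log2 fold change was 0.80 ± 0.07 (SE, edgeR adjusted p = 8.51e-08). Rbbp4 ranged from 183 to 295 CPM in Mki67 cells (median 223) and from 134 to 155 CPM in unmarked cells (median 139), also without overlap, at 0.65 ± 0.08 (log2, SE, edgeR adjusted p = 3.41e-06). Suz12 ranged from 106 to 168 CPM in Mki67 cells (median 128) and from 64.2 to 114 CPM in unmarked cells (median 84.3), at 0.58 ± 0.09 (log2, SE, edgeR adjusted p = 4.77e-05). Suz12 was higher in Mki67 cells of 9 of 9 libraries, least in WT3 kidney, where the difference was 0.05 on the log2 scale.

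Phf19 had the largest fold change of the members and the fewest counts. It ranged from 1.47 to 12.5 CPM in Mki67 cells, with a median of 8.35, and from 0.485 to 2.64 CPM in unmarked cells, with a median of 1.19. It was higher in 8 of 9 libraries, by 2.58 ± 0.44 in the fit (log2, SE, edgeR adjusted p = 0.000143). WT1 kidney was the library in which it was not higher. Aebp2, at 112 to 214 CPM in Mki67 cells and 97.3 to 189 CPM in unmarked cells, was higher in 9 of 9 libraries but only by 0.26 ± 0.07 (log2, SE, edgeR adjusted p = 0.00601). That call was lost with 2 or more Mki67 UMIs required (adjusted p = 0.0688) and without the filter on low counts (adjusted p = 0.0536).

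Ezh1 and Jarid2 ran the other way. Ezh1 ranged from 5.75 to 18.8 CPM in Mki67 cells, with a median of 10.0, and from 11.3 to 21.3 CPM in unmarked cells, with a median of 15.9. It was lower in Mki67 cells of 8 of 9 libraries, by -0.81 ± 0.20 (log2, SE, edgeR adjusted p = 0.00355), and the call was lost without WT2 (adjusted p = 0.0628). Jarid2 ranged from 77.0 to 162 CPM in Mki67 cells (median 95.3) and from 125 to 218 CPM in unmarked cells (median 141), and was lower in 9 of 9 libraries, by -0.53 ± 0.08 (log2, SE, edgeR adjusted p = 4.14e-05). Both methyltransferase genes of the complex, Ezh2 and Ezh1, were thus called between the same cells, in opposite directions. Eed, at 0.17 ± 0.10 (log2, SE, edgeR adjusted p = 0.213), and Mtf2, at 0.02 ± 0.13 (log2, SE, edgeR adjusted p = 0.911), were each higher in some libraries and lower in others, and both were higher in the Mki67 cells of all 5 spleen libraries.

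**Figure D2:**
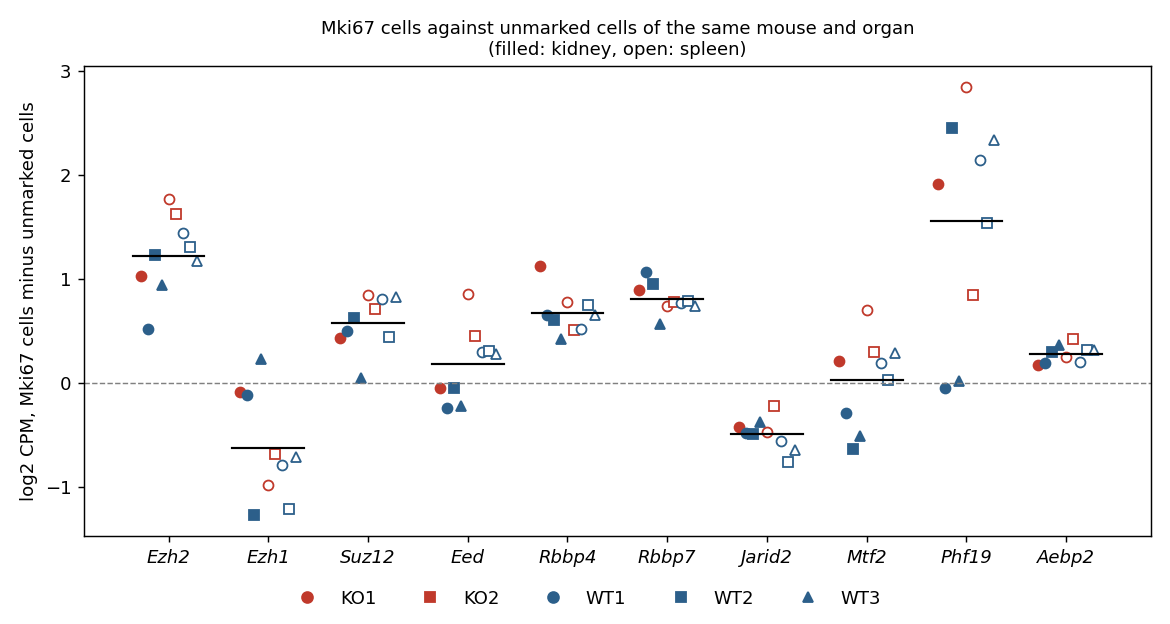
Difference in log2 CPM between Mki67 cells and unmarked cells of the same mouse and organ (vertical axis) for each PRC2 subunit; each symbol is 1 of 9 libraries, filled for kidney and open for spleen, and each black line the mean. Ezh2, Suz12, Rbbp4, Rbbp7 and Aebp2 lie above 0 in 9 of 9 libraries, Jarid2 lies below 0 in 9 of 9, and Eed and Mtf2 lie above 0 in spleen only except for KO1 kidney in Mtf2.

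Of the genes that mark division, all 12 replication genes on the list (such as Mcm5 and Pcna) and all 8 mitosis genes (such as Cdk1 and Plk1) rose in the Mki67 cells, with medians of 2.06 and 5.69 on the log2 scale. Of 6 transcripts of mature resting T cells, 5 fell there. Mki67 cells also had more UMIs counted, with a median of 4017 to 10207 UMIs per cell over libraries, against 3088 to 3368 in unmarked cells. The rule asks for at least 1 Mki67 UMI, which cells with more UMIs meet more easily. Droplets with 2 cells would also hold more UMIs. The parts of the rule and of such droplets were not tested. Summed CD8 transcripts ranged from 5.31 to 368 CPM in Mki67 cells and from 3.05 to 105 CPM in unmarked cells, and myeloid transcripts from 4.0 to 443 CPM and from 5.87 to 91.5 CPM. Their part in the Mki67 results was not tested.

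Other proteins that join PRC2 variants did not follow one direction in the Mki67 cells. Of 6 such genes in the matrices, the elongin genes Elob (0.31 ± 0.08, log2, SE, edgeR adjusted p = 0.00385) and Eloc (0.25 ± 0.09, log2, SE, edgeR adjusted p = 0.0325) rose. Phf1, the third Polycomb-like gene beside Mtf2 and Phf19, fell by -1.46 ± 0.12 (log2, SE, edgeR adjusted p = 9.02e-09), and the PRC2.1 partner Lcor fell by -0.36 ± 0.13 (log2, SE, edgeR adjusted p = 0.0335). The 3 Polycomb-like genes therefore gave a rise (Phf19), a fall (Phf1) and no call (Mtf2). Epop and Lcorl did not pass, and the list is not independent of the members since it was drawn up with earlier results of these data known.

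Among naive cells, Ezh2 was the only one of 9 members tested that passed. It stood at 51.1 and 24.5 CPM in the naive cells of KO1 and KO2 kidney, against 79.2 and 68.1 CPM in unmarked cells. In KO spleen it stood at 30.9 and 34.4 CPM in naive cells, against 49.9 and 50.4 CPM in unmarked cells. In WT2 spleen it stood at 41.9 CPM in naive cells, against 126 CPM in unmarked cells. In WT1 spleen there were 0 Ezh2 UMIs of 203331 in naive cells, which allows up to 14.8 CPM, against 57.2 CPM in unmarked cells. Ezh2 was thus lower in the naive cells of all 6 libraries, and the fit gave -0.88 ± 0.20 (log2, SE, edgeR adjusted p = 0.00133), where 22.1% of genes tested were called and 13.5% as lower. The 4 libraries of KO mice, kidney and spleen of KO1 and KO2, are most of those compared, since other WT libraries held under 20 naive cells.

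Of the resting transcripts 5 of 6 rose in the naive cells, and of 11 tested T cell genes that PRC2 is reported to control 8 fell and Bcl2l11 rose. Epop, a PRC2.1 partner, rose there by 1.30 ± 0.25 (log2, SE, edgeR adjusted p = 0.000227).

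In Foxp3 cells Eed was the only one of 9 members called, where 12.3% of genes were and 5.99% as higher. It ranged from 100.1 to 133 CPM in Foxp3 cells, with a median of 108, and from 64.4 to 115 CPM in unmarked cells of the same 6 libraries, with a median of 80.4. The difference was 0.41 ± 0.10 (log2, SE, edgeR adjusted p = 0.0166), with Eed higher in 6 of 6 libraries. The call was lost without WT1 (adjusted p = 0.183), without KO2 (adjusted p = 0.0681) and without the filter on low counts (adjusted p = 0.0559). Mtf2 and Rbbp7 were lower in Foxp3 cells of 6 of 6 libraries but did not pass, at -0.33 ± 0.12 (log2, SE, edgeR adjusted p = 0.107) and -0.21 ± 0.10 (log2, SE, edgeR adjusted p = 0.197). In Havcr2 cells 0 of 9 members passed in edgeR over 8 libraries, where 17.2% of genes were called. Ezh1 came nearest, at 0.30 ± 0.17 (log2, SE, edgeR adjusted p = 0.289).

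Across cell groups, Ezh2 stood highest in Mki67 cells, at 132 to 313 CPM. Havcr2 cells held 34.8 to 156 CPM and unmarked cells 49.9 to 138 CPM, ranges that overlap. Foxp3 cells held 27.4 to 88.9 CPM and naive cells 0 to 51.1 CPM. Only the Mki67 and naive groups were apart from unmarked cells in the test.

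**Figure D3:**
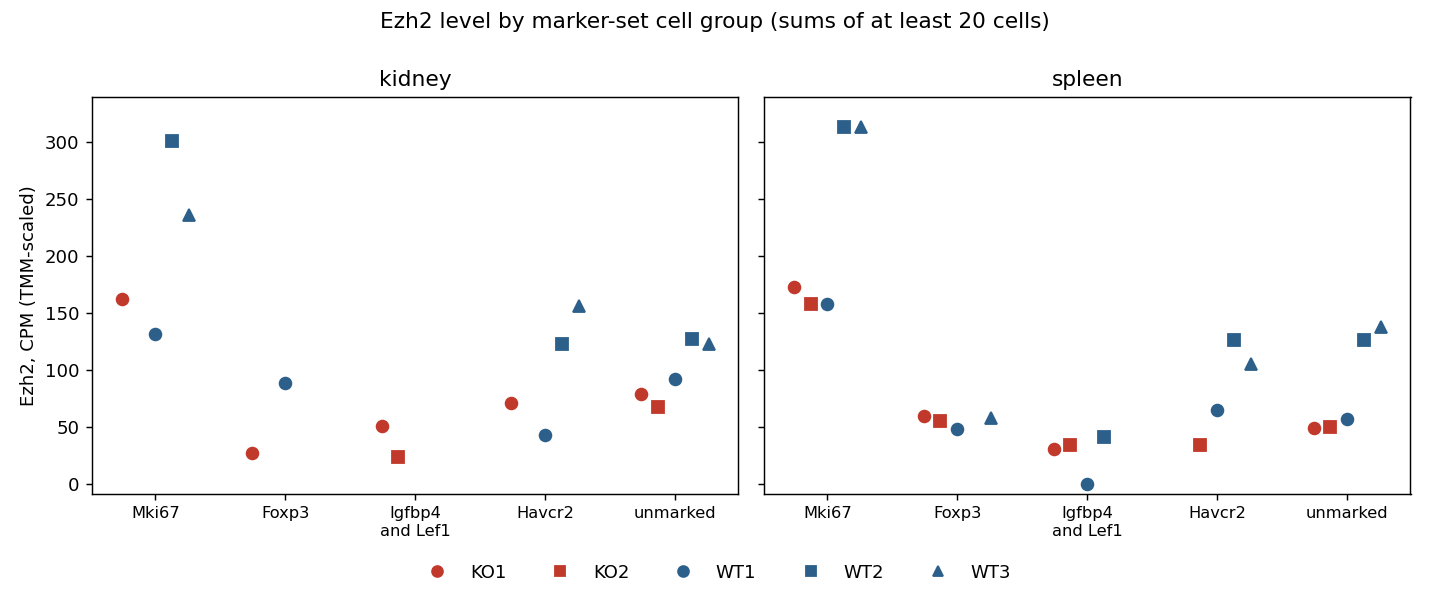
Ezh2 level in TMM-scaled CPM (vertical axis) by cell group in kidney (left panel) and spleen (right panel); each symbol is 1 mouse with at least 20 cells in the group. Mki67 cells hold 132 to 313 CPM and naive cells (Igfbp4 and Lef1) at most 51.1 CPM, and in spleen the KO and WT1 symbols lie close together in Mki67, Foxp3 and unmarked cells.

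Between KO and WT mice within a cell group, 0 of the members tested passed in edgeR in any of 5 comparisons. In unmarked cells 0% of genes were called in either organ, although before adjustment 839 genes in kidney and 1027 in spleen were under 0.05, and 24 and 129 were called by DESeq2. Among Mki67 cells of spleen 0% were called, against 736 under 0.05 before adjustment and 21 called by DESeq2. Among Foxp3 and naive cells of spleen the shares were 0.107% and 0.0745%.

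Ezh2 in unmarked cells was lower in KO mice by -0.61 ± 0.20 in kidney (log2, SE, edgeR adjusted p = 0.566) and -1.07 ± 0.39 in spleen (log2, SE, edgeR adjusted p = 0.446). Without WT1 these became -0.73 (adjusted p = 0.0228) and -1.37 (adjusted p = 0.00031). Over all genes, leaving out single mice gave 0 to 647 calls in kidney and 0 to 1433 in spleen in these cells. In the Mki67 cells of spleen, where 173 and 158 CPM in KO mice stood against 158, 313 and 313 CPM in WT mice, the groups overlapped at WT1. The fit gave -0.61 ± 0.30 there (log2, SE, edgeR adjusted p = 0.642), or -0.86 without WT1 (adjusted p = 0.0103). Over all genes, leaving out single mice gave 0 to 386 calls in the Mki67 cells of spleen. In Foxp3 cells of spleen Ezh2 stood at 59.8 and 55.7 CPM in KO mice, against 48.9 and 58.7 CPM in WT1 and WT3, with 17 to 91 UMIs behind each value. These overlapped, at 0.16 ± 0.26 (log2, SE, edgeR adjusted p near 1), and WT2 held too few Foxp3 cells to be compared. In naive cells of spleen the KO values of Ezh2 given above lay between those of WT1 and WT2, so the groups overlapped there too. WT3 held too few naive cells in spleen to be compared.

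Between organs, Aebp2 was the member that passed. It stood at 177 and 167 CPM in the kidneys of KO1 and KO2, against 100.3 and 109 CPM in their spleens. In WT mice it stood at 150, 167 and 171 CPM in kidney, against 95.9, 149 and 123 CPM in spleen. Every kidney value lay above every spleen value, and kidney was higher in 5 of 5 mice, least in WT2. The log2 fold change was 0.54 ± 0.12 or 1.45-fold (SE, edgeR adjusted p = 0.00968), where 22.9% of 11628 genes were called and 12.7% as higher in kidney. The call was lost without KO1 (adjusted p = 0.0662) or without KO2 (adjusted p = 0.0595).

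The organ difference of Aebp2 was as large in unmarked cells alone, at 0.53 ± 0.12 (log2, SE, edgeR adjusted p = 0.0103), where 23.3% of genes were called and 13.9% as higher, and without KO1 that call too was lost (adjusted p = 0.0564). In the other cell groups its log2 difference between kidney and spleen was 0.42 in Mki67 cells, 0.49 in Foxp3 cells, 0.50 in naive cells and 0.54 in Havcr2 cells, and none of these passed in edgeR (adjusted p of 0.204 to 0.298). The shares of all genes called between organs in those groups were 2.23%, 7.44%, 6.7% and 2.65%. Over all cells the lowest value of a member was that of Mtf2, -0.25 ± 0.11 (log2, SE, edgeR adjusted p = 0.114), which did not pass.

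**Figure D4:**
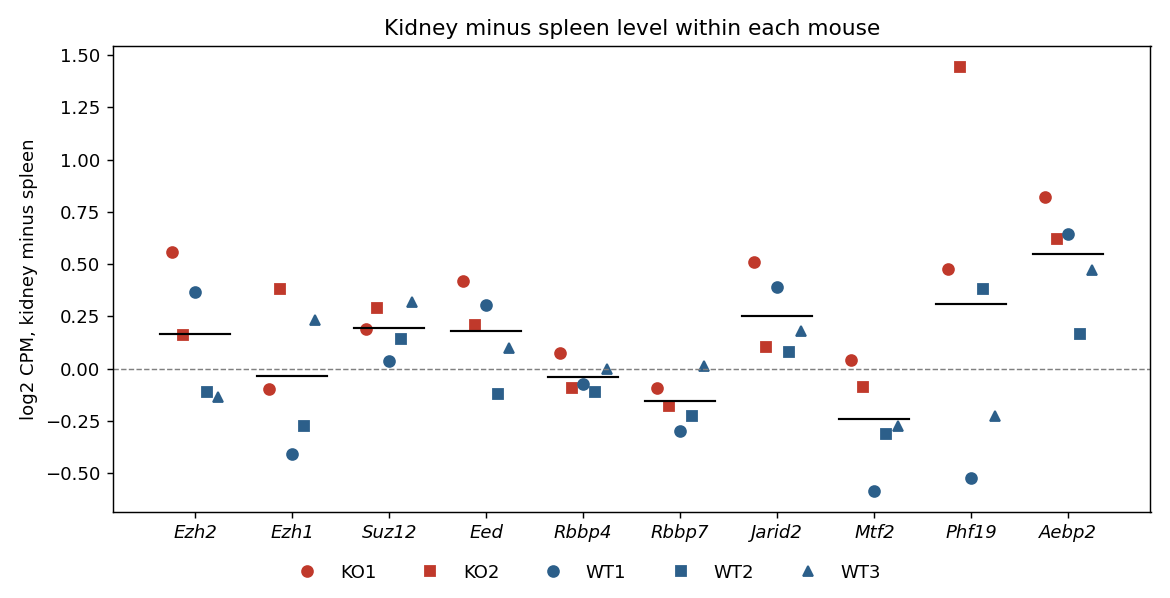
Difference in log2 CPM between kidney and spleen of the same mouse (vertical axis) for each PRC2 subunit; each symbol is 1 of 5 mice and each black line the mean. Aebp2, Jarid2 and Suz12 lie above 0 in 5 of 5 mice, and Ezh2 lies above 0 in KO1, KO2 and WT1 and below 0 in WT2 and WT3.

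Suz12 and Jarid2 were also higher in kidney in 5 of 5 mice, as were 19.5% of all genes. Jarid2 differed by 0.27 ± 0.12 (log2, SE, edgeR adjusted p = 0.118), and with the mouse as a block it passed (0.26, adjusted p = 0.0405). Suz12 did not pass over all cells at 0.20 ± 0.11 (log2, SE, edgeR adjusted p = 0.208), while in unmarked cells it passed with the mouse as a block (0.28, adjusted p = 0.0402) and without WT1 (0.33, adjusted p = 0.0299). Eed in unmarked cells differed by 0.34 ± 0.12 (log2, SE, edgeR adjusted p = 0.0604), and passed without WT2 (0.44, adjusted p = 0.0347). Mtf2 in the Mki67 cells stood at 47.0 CPM in KO1 kidney, against 57.7 CPM in KO1 spleen. In WT mice it stood at 35.2, 28.7 and 26.9 CPM in kidney, against 75.7, 55.8 and 58.4 CPM in spleen. The organs were apart in these cells, and the difference of -0.95 ± 0.23 (log2, SE, edgeR adjusted p = 0.0586) passed with the mouse as a block (-0.96, adjusted p = 0.0128) and without the filter on low counts (-0.93, adjusted p = 0.0248). Ezh2 itself did not differ beyond its spread between organs, at 0.13 ± 0.24 (log2, SE, edgeR adjusted p = 0.734).

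Of the T cell genes that PRC2 is reported to control, 0 of 11 tested passed between KO and WT spleen in edgeR, and 0 of 9 in kidney. Eomes, a T-box factor, came nearest, at 44.8 and 66.3 CPM in KO spleen, against 231, 352 and 364 CPM in WT spleen. Its log2 fold change was -2.48 ± 0.28 (SE, edgeR adjusted p = 0.0514). Bcl2l11, which encodes the death-promoting protein Bim, stood at 44.6 and 36.3 CPM in KO spleen, against 15.6, 11.2 and 13.3 CPM in WT spleen, at 1.60 ± 0.19 (log2, SE, edgeR adjusted p = 0.0573). The KO groups were apart from WT for both genes. Zbtb16, which encodes the factor PLZF, had the largest fold change of the list, at 3.45 ± 0.84 (log2, SE, edgeR adjusted p = 0.137). It rested on few counts, 14 and 29 UMIs in KO spleen against 7, 0 and 1 in WT1, WT2 and WT3 spleen. The cytokine gene Ifng was at -2.33 ± 0.54 (log2, SE, edgeR adjusted p = 0.127). In kidney Eomes was at -2.13 ± 0.63 (log2, SE, edgeR adjusted p = 0.467), Prdm1 at -0.89 ± 0.28 and Bcl2l11 at 0.86 ± 0.16. The median of the list was -0.40 in spleen and -0.36 in kidney on the log2 scale, against -0.006 and -0.005 over all genes tested. In unmarked cells alone the median had the other sign, 0.29 over 10 tested genes in spleen and 0.21 over 9 in kidney. There Eomes was at -1.77 ± 0.18 in spleen and -2.33 ± 0.67 in kidney, and Bcl2l11 at 1.32 ± 0.24 in spleen and 0.42 ± 0.20 in kidney (log2, SE, edgeR adjusted p of 0.143 to 0.604). Ifng was there at -1.57 ± 0.49 in spleen and -0.27 ± 0.13 in kidney (log2, SE). Naive cells, the more common in KO mice, differed from unmarked cells in the same direction for these genes, at -3.29 for Eomes, -3.87 for Ifng and 1.24 for Bcl2l11 on the log2 scale (edgeR adjusted p = 6.28e-13, 1.25e-13 and 9.08e-07). The part of the naive cells in the genotype differences of these genes was not tested. Of 11 genes of the list tested between organs, Bcl2l11, Tbx21 and Cdkn1a rose in kidney over spleen by 1.29, 1.5 and 1.95 on the log2 scale. Over all genes tested between organs 22.9% were called, and 12.7% as higher in kidney.

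Of the 6 other PRC2 partners, none passed between KO and WT mice. Epop, which competes with other PRC2.1 partners for the complex, stood apart in both organs. It held 18 and 14.7 CPM in KO spleen, against 4.68, 8.17 and 5.97 CPM in WT spleen, at 1.43 ± 0.28 (log2, SE, edgeR adjusted p = 0.104). In kidney it held 21.4 and 21.1 CPM in KO mice, against 8.55, 9.51 and 6.14 CPM in WT mice, at 1.41 ± 0.26 (log2, SE, edgeR adjusted p = 0.392). In unmarked cells, which hold no naive cells by the rule, the Epop difference was 1.30 ± 0.36 in kidney (log2, SE, edgeR adjusted p = 0.566) and 1.1 ± 0.31 in spleen (log2, SE, edgeR adjusted p = 0.349). The next in size were Lcorl (-0.31) and Eloc (-0.28) in spleen and Phf1 (-0.33) and Elob (-0.22) in kidney, on the log2 scale. Eloc rose in kidney over spleen by 0.35 ± 0.10 (log2, SE, edgeR adjusted p = 0.0329).

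The genes most like Ezh2 over the 10 sums were found by Pearson correlation of log2 CPM among 5977 genes. Among the first were Supt4a, Grb2, Eri1 and Ech1, at 0.988 to 0.977, and Ccr2, Slc39a6, Tmbim6 and Prdm1, at 0.971 to 0.969. The sums share mice, libraries and depth, and the highest values were those of WT2 and WT3. Grb2, for instance, stood at 155 to 173 CPM in KO libraries and 173 and 183 CPM in WT1, against 250.5 to 284 CPM in WT2 and WT3. Among the members Suz12 was most like Ezh2 (0.879), then Rbbp7 (0.756), and Jarid2 was least like it (-0.53).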

How the data were processed

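CD4+ T cells were profiled by 10x 5′ single-cell sequencing with antibody tags. The authors deposited 1 matrix per organ of raw UMI counts for genes and 10 tag rows, made with Cell Ranger 7.1.0 per the file headers. GRCm38 (mm10) was the genome, and Seurat 5.0.1 is also named, per the submitters' processing notes. Other settings were not given in the sources used here. The receptor libraries were not used here.

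Of 30891 deposited entries in 18 blocks of barcodes, the 10 first-day blocks (13368 cells) were each led by the tag of 1 mouse and organ in the deposited key. Tag numbers were joined to mice by the key's order. The 8 second-day blocks held repeats of the same cells and entered no comparison. A tag other than the block's own led 13 cells, which were left out. Cells needed 200 genes and under 10% mitochondrial UMIs. No doublet caller was run. Block and mouse cannot be told apart.

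Counts were summed per mouse and organ, and per cell group of at least 20 cells. edgeR 4.0.16 (R 4.3.3) tested the sums (quasi-likelihood, TMM, filterByExpr), with Benjamini-Hochberg adjustment over all genes and a threshold of 0.05. SE is the log2 fold change divided by the root of F. Log2 CPM used a prior count of 2. Marked groups were fitted with mouse and organ as a block, so kidney and spleen of the same mouse counted as separate libraries. The mouse pairs the organs (same animals), and deviations from the group means correlated at 0.131 to 0.685 over 5985 genes. Shares carry counting error only.

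The 10 members were looked up in every comparison, and those past the filter on low counts were tested. The text gives values for only some of them in the organ, cell group and within-group comparisons. Of the fixed lists, genes past the threshold are named, or the 3 of largest fold change where none passed. Genes most like Ezh2 were taken as the first 10 with a mean of at least 20 CPM, and some of them are not reported here. Members and lists were chosen with earlier results of these data known. The motif and the genes given by library outside the members (Eomes, Bcl2l11, Epop, Grb2) were chosen after values were seen. Alternatives were DESeq2 1.42.0 (test, size factors), no filter, each mouse left out, other cell sets and group rules, and the block. On simulated counts with 200 changed genes the fit recovered 28% (log2 change of 1) and 86% (log2 change of 2) for KO against WT spleen, 35% and 83% for kidney, 62% and 93% for kidney against spleen, and 79% and 97% for Mki67 cells. Gene positions and promoter windows are RefSeq's (GRCm38.p6), and all 10 members matched by symbol.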

Additional observations from a re-analysis of the deposited data

Results flagged for a closer look

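One value stood apart from the others of its group. Over the 6 libraries with enough naive cells, the difference in Ezh2 between naive and unmarked cells in spleen of WT1 was -5.32 on the log2 scale, since 0 Ezh2 UMIs were counted in its 39 naive cells. The other 5 libraries lay nearer to 0. In all 37 groups of 4 to 10 libraries were searched, and chance flags about 1 in 20. A value from 0 counts depends on the prior count, and the count of 0 allows up to 14.8 CPM.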

How the results depend on the processing

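Counts of called genes moved with the test, the filter, the group rule, the block and the mice used. With DESeq2 they were 697 for KO against WT spleen (28 in edgeR), 58 for kidney (0), 6 for the interaction (0), 1493 for naive cells (2303), 21, 129 and 24 for KO against WT in spleen Mki67, spleen unmarked and kidney unmarked cells (0 each), 0 in spleen Foxp3 cells (9) and 16 in spleen naive cells (6). For kidney against spleen DESeq2 gave 304 in Mki67 (194), 100 in Foxp3 (522) and 291 in naive cells (530). Without the filter on low counts the counts were 340 and 26 for spleen and kidney, 377, 84, 86, 153 and 53 for KO against WT in spleen Mki67, Foxp3, naive and unmarked and kidney unmarked cells, and 587 and 540 for kidney against spleen in Mki67 and Havcr2 cells (172). DESeq2 size factors gave 2 in both spleen Foxp3 and naive cells. Without cells of other types 71 genes were called in spleen. Without Mki67 cells 80 were called in spleen and 1 in kidney, and without Mki67 and naive cells 0 in spleen and 1 in kidney. At 2 marker UMIs the counts were 1 for spleen Foxp3 cells and 54 for the Havcr2 organ comparison. With overlapping groups they were 2840 for Havcr2 cells (1726), 0 for spleen Foxp3 and 18 for spleen naive cells.

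With the mouse as a replicate block, the interaction had 4 calls and kidney against spleen 650 in Mki67 cells and 585 in Havcr2 cells. The block changed the calls of Jarid2, Suz12 and Mtf2 given in the report and no other call of a member.

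Leaving out each mouse gave 0 to 2254 calls in spleen, 0 to 739 in kidney (the upper value in each without WT1), 0 to 1 for the interaction and 1484 to 2712 for kidney against spleen. For marked cells it gave 2775 to 3602 (Mki67), 555 to 1282 (Foxp3), 1245 to 2375 (naive) and 1023 to 1562 (Havcr2). Within groups KO against WT gave 0 to 386 (spleen Mki67), 0 to 1433 (spleen unmarked) and 0 to 647 (kidney unmarked), and kidney against spleen 56 to 236 (Mki67), 0 to 390 (Havcr2) and 1400 to 2365 (unmarked). Where too few sums were left, no value was computed. The Ezh2 level difference ran from -1.14 to -0.73 in kidney and from -1.63 to -0.97 in spleen.

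Of values with no call, 3 changed sign: Ezh2 in Foxp3 cells to 0.0166 and Ezh1 in Havcr2 cells to -0.14 with overlapping groups, and Jarid2 in kidney unmarked cells of KO against WT to -0.0944 without KO1 (0.52 without KO2). Of the member values recomputed, 582 kept direction and side of the threshold, 9 lost the call, 13 gained it and 3 reversed. The cause of these changes was not tested. Depth limits Phf19 and Ezh1 most.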
